A study of Mus musculus with 81 samples.

Results

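RNA-seq of macrophages from mice with intact and with conditionally deleted histone H3.3 genes was examined for 9 genes of the JAK-STAT pathway: Stat2, Stat3, Stat5a, Stat5b and Stat6, which encode signal transducers, and Jak1, Jak2, Jak3 and Tyk2, which encode the kinases that activate them. They were chosen by gene symbol and not by a measured value, but with earlier results of these data known. They are 9 of the 54079 genes with a symbol listed in every library, and other genes of the 2 families were not analysed here. The H3.3 conditional knockout (H3.3cKO) carried floxed H3f3a and H3f3b, the genes for H3.3, together with LysM-cre on both alleles, and wild type (WT) mice carried the floxed genes without cre, all on a C57BL/6 background and 8 to 10 weeks old when used. Bone marrow progenitors were grown into bone marrow-derived macrophages (BMDMs) with M-CSF and sampled at 3 times, day 3, 5 and 7, with 3 WT and 3 H3.3cKO libraries at each time. Day 8 BMDMs were left untreated or given IFNγ for 12 h (3 WT libraries and 2 H3.3cKO libraries in each arm), and resident peritoneal macrophages were taken from both genotypes (3 and 3). A further culture received no antibody, a control antibody or an antibody that blocks IFNAR1, the type I interferon receptor chain (3 libraries of each genotype per arm). The last experiment held 3 separately titled sets of WT and H3.3cKO BMDMs (3 and 3 each) and 3 double knockouts, H3.3cKO:StingKO, H3.3cKO:MavsKO and H3.3cKO:Irf7KO (3 each).

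Some features of the design limit these groups as models. LysM-cre sits in the Lyz2 gene, so with 2 copies of cre the loss of Lyz2 goes with the deletion of the H3.3 genes in every H3.3cKO library, and the cre acts in myeloid cells and not in macrophages alone. The labels tie no WT or H3.3cKO set to a double knockout, so each double knockout was compared with the mean of the 3 sets, and genotype and library batch cannot be told apart there. On day 8, 2 further H3.3cKO libraries had a title and a library name that disagreed on IFNγ, and they entered no comparison. The labels call the libraries biological replicates without saying whether they came from separate animals, so p-values measure only the spread between these samples. In bulk RNA, fewer cells of a type and less RNA per cell cannot be told apart.

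Cytokine receptors have no kinase of their own. A JAK bound to each receptor chain phosphorylates the chain and then a STAT, which pairs with another STAT, enters the nucleus and binds DNA. Type I interferon acts through Tyk2 and Jak1 on Stat2, which joins IRF9 in the ISGF3 complex on interferon-stimulated response elements (ISREs), whereas IFNγ acts through Jak1 and Jak2 and STAT pairs on GAS elements. Stat3 serves IL-6 and IL-10, Stat5a and Stat5b serve GM-CSF and IL-3, Stat6 serves IL-4 and IL-13, and Jak3 works with the common γ chain of interleukin receptors. SOCS proteins and Usp18 damp the pathway, and several of its own genes are interferon targets in macrophages.

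The genes lie on 6 chromosomes (GRCm38, GENCODE M21). Stat5b (chr11:100780731-100850724, minus strand), Stat5a (chr11:100859351-100885169, plus strand) and Stat3 (chr11:100885098-100939540, minus strand) are neighbours, and the 3' ends of Stat3 and Stat5a overlap by 72 bases on opposite strands. Stat6 (chr10:127642986-127660957) and Stat2 (chr10:128270559-128292849) share a chromosome, and Jak1 (chr4:101152367-101265282), Jak2 (chr19:29251828-29313080), Jak3 (chr8:71676296-71690575) and Tyk2 (chr9:21104068-21131243) each have their own. Strand did not enter the counts, and reads on exons of more than 1 gene were counted for none. The gene spans of Tyk2 and the antisense gene 1700084C06Rik overlap by 24326 bases, and Jak3 holds Insl3 within its last 1362 bases on the same strand. Levels per kb of Tyk2 and Jak3 may thus be understated, since full exon lengths were used. The promoters of 3 members that the results turn on are shown: Stat2, which moved most with genotype, Jak2, which rose with Stat2 on day 3 and with IFNγ, and Stat6, which had the highest level in most groups. Each sequence runs from 250 bases before the RefSeq start site to 50 bases after it on GRCm38.p6, and capitals mark an ISRE, searched as 2 copies of GAAA with any 2 bases between them, which the other strand reads as TTTC.
Stat2, chr10:128270248-128270547, plus strand: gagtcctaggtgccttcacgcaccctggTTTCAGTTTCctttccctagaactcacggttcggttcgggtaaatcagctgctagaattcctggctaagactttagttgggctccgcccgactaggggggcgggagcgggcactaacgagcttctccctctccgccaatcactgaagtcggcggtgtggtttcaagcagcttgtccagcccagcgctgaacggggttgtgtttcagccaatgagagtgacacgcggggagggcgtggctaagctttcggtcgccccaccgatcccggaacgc
Jak2, chr19:29251553-29251852, plus strand: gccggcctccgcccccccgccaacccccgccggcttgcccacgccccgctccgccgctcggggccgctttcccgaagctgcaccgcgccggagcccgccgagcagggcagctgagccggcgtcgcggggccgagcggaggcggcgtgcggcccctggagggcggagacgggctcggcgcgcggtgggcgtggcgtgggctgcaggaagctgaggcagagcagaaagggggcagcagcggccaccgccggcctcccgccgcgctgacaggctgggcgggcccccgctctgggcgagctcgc
Stat6, chr10:127642736-127643035, plus strand: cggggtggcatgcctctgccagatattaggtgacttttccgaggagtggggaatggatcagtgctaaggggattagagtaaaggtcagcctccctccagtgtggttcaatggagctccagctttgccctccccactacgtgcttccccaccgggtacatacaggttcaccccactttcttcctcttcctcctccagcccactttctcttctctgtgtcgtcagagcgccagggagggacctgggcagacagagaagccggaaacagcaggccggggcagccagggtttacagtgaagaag
Stat2 held 1 match, TTTCAGTTTC, at bases -222 to -213 from its start site. None of the other 10 promoter windows of these genes held one (Stat5a and Stat5b have 2 windows each), and none of the 11 held the palindromic GAS letters TTCNNNGAA. Of all 32851 mouse promoters in the same table, 1131 (3.44%) held the ISRE letters and 2726 (8.30%) the GAS letters. A match is a description of these letters and not a binding site, and a window without one says nothing of the factor.

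Counts on genes ran from 3614967 to 9879339 per library on day 8, from 5295144 to 34380735 with antibodies and from 7625225 to 45564225 elsewhere. H3f3a was at 33.6 to 93.8 CPM (counts scaled to a common library size with TMM factors) in WT libraries and 1.21 to 15.3 CPM in H3.3cKO libraries, and Lyz2, the gene that carries cre, was at 4465 to 76406 and 1.69 to 81.9 CPM. H3f3b, the other H3.3 gene, was much less reduced in most experiments. In the antibody cultures it was at 295 to 468 CPM in WT and 16.7 to 67.8 CPM in H3.3cKO. In the time course it was at 181 to 280 CPM in WT and 149 to 222 CPM in H3.3cKO, and in the 3 sets at 200 to 285 and 187 to 220 CPM, overlapping on each day and in set 1 and not in sets 2 and 3. Day 8 libraries with IFNγ overlapped as well (312 to 316 and 237 to 325 CPM), as did peritoneal ones (355 to 536 and 302 to 361 CPM), and untreated day 8 libraries did not (206 to 244 and 173 to 187 CPM). H3.3cKO:Irf7KO was at 71.9 to 147 CPM, against 181 to 220 CPM in the other double knockouts. The paper places loxP sites around the exons of H3f3b and describes its deletion as variable, complete in some H3.3cKO samples and partial in others. These counts do not show a complete loss of H3f3b. The share deleted in each library was not estimated, and H3.3 protein was not measured here. The paper reports deletion of both H3.3 genes by PCR of genomic DNA, and depletion of their RNA by qRT-PCR and RNA-seq. It also reports depletion of H3.3 protein in BMDMs by western blot. Whether the blotted cells match these libraries was not tested. All 8 macrophage markers fixed for the check were detected in every group. Irf7 RNA was at 98.3 to 112 CPM in H3.3cKO:Irf7KO against 249 to 470 CPM in the H3.3cKO sets, and Sting RNA (Tmem173) at 5.01 to 6.10 against 68.2 to 91.6 CPM. Mavs RNA was at 37.2 to 37.9 CPM in H3.3cKO:MavsKO and at 36.0 to 51.6 CPM in the H3.3cKO sets. Counts over the whole gene thus do not check that label. The paper reports the Mavs deletion by PCR of genomic DNA, by qRT-PCR and by RNA-seq tracks over the deleted exons. One day 8 library stood apart, H3.3cKO with IFNγ replicate 1, with 3614967 counts and a TMM scaling factor of 0.46 against 0.89 to 1.25 in the others of that experiment.

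Stat6 was the highest member per length in most macrophages. On the scale of CPM per kb of exon, its mean was 65.6 ± 3.42 (SD, n = 3) in WT day 3 progenitors, ahead of Jak1, the kinase shared by most cytokine receptors, at 34.2 ± 1.85. Tyk2 (12.3), Stat3 (11.4), Stat5b (10.4) and Jak2 (10.3) formed a middle tier, and Stat2 (5.98), Stat5a (5.03) and Jak3 (4.62) were lowest. Stat5b and Jak2 overlapped in their libraries, as did Stat5a and Jak3, and the other neighbours in that order did not. Across all 27 groups Stat6 ranked first in 22, Jak1 in 3 and Stat2 in 2, and Stat5a ranked last in 19 and Jak3 in 8. Both groups led by Stat2 were the day 8 cultures with IFNγ, where Stat2 reached 112 CPM per kb in WT and 146 CPM per kb in H3.3cKO. In day 3 H3.3cKO progenitors Stat2 already ranked second, at 42.6 CPM per kb. In peritoneal macrophages Stat3, at 42.2 ± 18.5 CPM per kb in WT, ranked 3 of 9, and each neighbour from Stat6 down to Jak3 overlapped the next. That experiment used another library kit, so its levels were not tested against those of BMDMs.

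**Figure D1:**
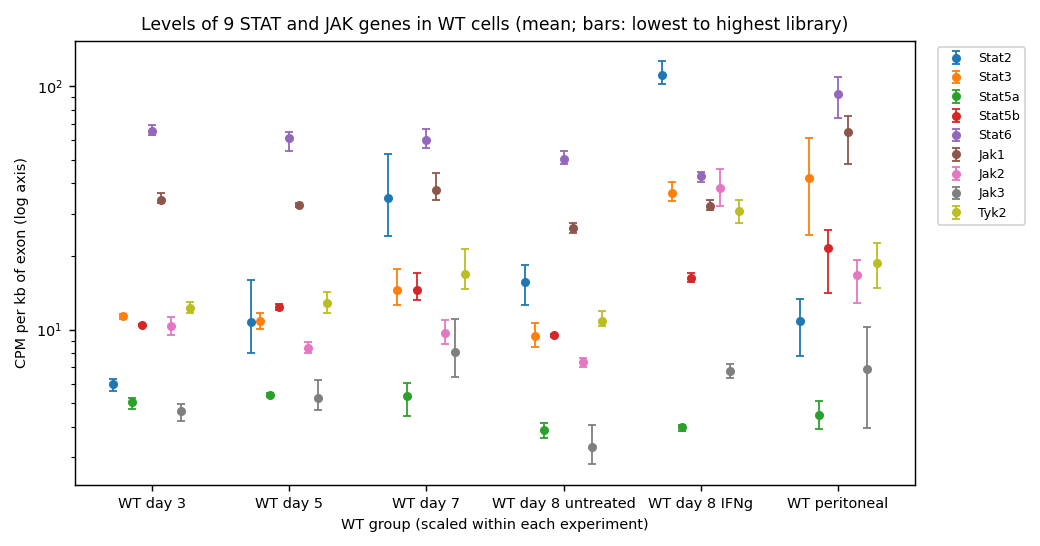
Levels of the 9 genes in WT macrophages, as CPM per kb of exon on a log axis, by group, with points at the means and bars from the lowest to the highest library. Stat6 sits at the top in most groups and Stat2 moves from 5.98 on day 3 to 112 with IFNγ.

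In day 3 progenitors 3 of the 9 members, Stat2, Jak2 and Stat3, were higher in H3.3cKO and none was lower. Over all 15955 genes tested, 8.65% were called by edgeR's quasi-likelihood test at a Benjamini-Hochberg adjusted p under 0.05. Stat2 was at 36.0, 37.3 and 33.1 CPM in the WT libraries and at 223, 244 and 290 CPM in the H3.3cKO libraries. Every H3.3cKO library was above every WT library, and the ratio of the means was 7.12, with a log2 fold change of 2.83 ± 0.43 (SE) and an adjusted p of 0.000761 in edgeR. Jak2, the kinase of the IFNγ and GM-CSF receptors, stood at 56.6, 47.7 and 51.2 CPM in WT and at 93.8, 85.5 and 79.7 CPM in H3.3cKO. These libraries did not overlap either, and the log2 fold change was 0.74 ± 0.16 (adjusted p = 0.00879, edgeR). Stat3 was at 110, 110 and 105 CPM in WT and at 187, 163 and 152 CPM in H3.3cKO, again with no overlap (0.63 ± 0.16, adjusted p = 0.019, edgeR).

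The Stat2 call on day 3 held without any single library. Stat3 was no longer called without any 1 of the WT libraries or without H3.3cKO replicate 1 (adjusted p up to 0.103), and Jak2 was no longer called without WT replicate 2 (0.0567). Stat6 went the other way, with 306, 284 and 277 CPM in WT and 244, 243 and 230 CPM in H3.3cKO, and its log2 difference of -0.27 ± 0.11 did not pass (adjusted p = 0.154, edgeR). Stat5b and Jak3 also had libraries that did not overlap between genotypes and did not pass (0.15 and 0.42 on the log2 scale). Jak1, Stat5a and Tyk2 overlapped, and the 95% interval of the Jak1 difference was -0.25 to 0.24. At this time the summed neutrophil markers were at 2738 to 4227 CPM in H3.3cKO and 1587 to 3045 CPM in WT, with 0 of 8 markers called. All 5 B cell markers rose (24.9 to 52.9 against 11.6 to 12.7 CPM in sum), and Cd68 fell among 8 macrophage markers. Higher too were 4 of 4 tested mast cell and basophil markers (10.1 to 16.6 against 2.82 to 3.93 CPM) and 1 of 4 dendritic cell markers. No defining marker of these lists was at 0 in either group, and their part in the member changes was not tested.

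**Figure D2:**
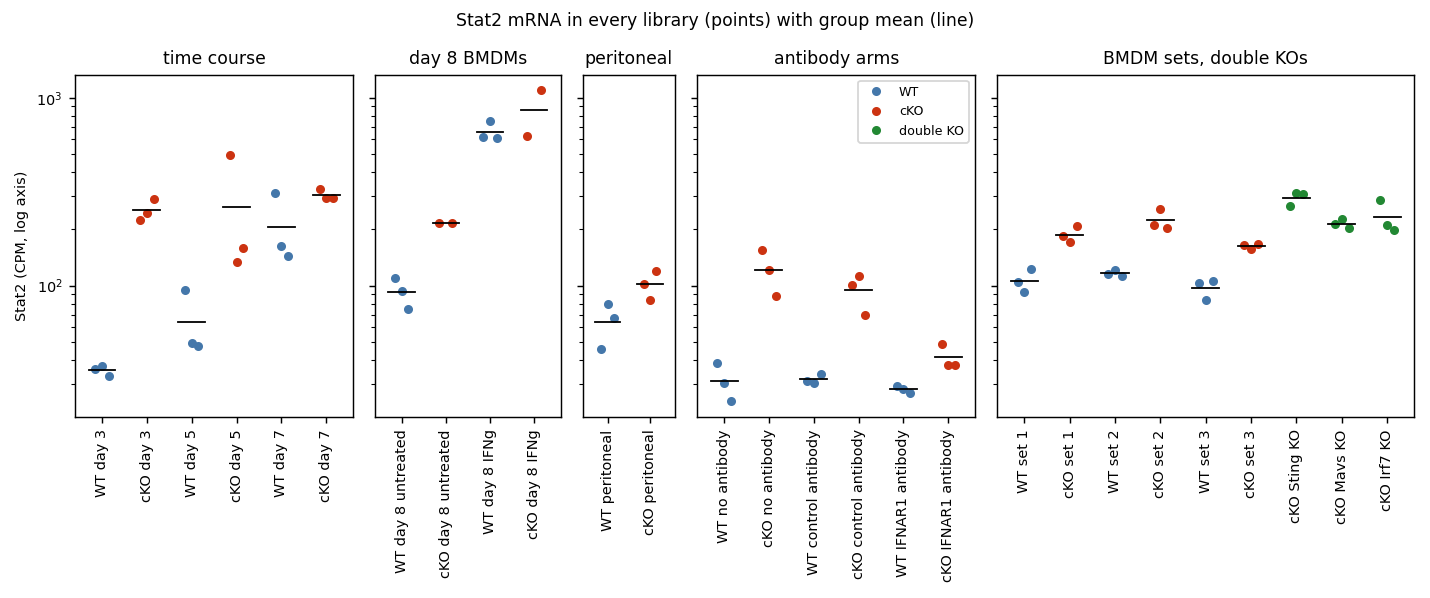
Stat2 CPM in each of the 79 libraries compared, on a log axis, by group and genotype; points are libraries and lines are group means. H3.3cKO libraries sit above WT on day 3 (223 to 290 against 33.1 to 37.3), and the genotypes overlap on day 7 and with IFNγ.

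On day 5, 2 members rose in H3.3cKO, against 3.12% of all genes called. Stat2 was at 94.6, 49.3 and 47.6 CPM in WT and at 495, 134 and 159 CPM in H3.3cKO, a log2 fold change of 2.04 ± 0.42 (adjusted p = 0.0146, edgeR). Replicate 1 was the highest of both genotypes, and without H3.3cKO replicate 1 the Stat2 value was 1.21 with an adjusted p of 0.08. It was also no longer called without WT replicate 2 (0.0889) or WT replicate 3 (0.0925). Jak2 was at 44.7, 42.0 and 40.3 CPM in WT and at 82.0, 57.2 and 58.5 CPM in H3.3cKO (0.64 ± 0.16, adjusted p = 0.0421, edgeR). Its libraries did not overlap, and the call was lost without any 1 of the 3 WT libraries or without H3.3cKO replicate 1 or replicate 3 (adjusted p 0.0604 to 0.26). Stat3 also did not overlap (96.3 to 111 against 117 to 183 CPM) and did not pass (adjusted p = 0.165). H3.3cKO replicate 1 is also the library with the highest sum of neutrophil markers, 1743 CPM against 504 to 588 CPM in the other two. Between genotypes 2 of 8 neutrophil markers, Mpo and Elane, were called higher in H3.3cKO (489 to 589 CPM in sum in WT), with none at 0. Of 4 tested mast cell and basophil markers 2 were called higher, Cpa3 and Gata2 (1.72 to 3.97 against 0.358 to 0.671 CPM in sum, 1 of 5 at 0 in WT). Stromal markers had no call but did not overlap in sum (68.2 to 96.5 against 13.2 to 42.9 CPM, 1 of 5 at 0 in WT), and the part of these cells in the result was not tested.

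By day 7 no member was called between genotypes, against 1.82% of all genes, and DESeq2 called none. No member reached an unadjusted p under 0.05, against 2653 of all 15955 genes. Stat2 was at 312, 163 and 144 CPM in WT and at 325, 291 and 294 CPM in H3.3cKO. WT replicate 1 lay within the H3.3cKO range, and the log2 difference was 0.56 with a 95% interval of -0.30 to 1.41. Without that library the difference was 0.99 (adjusted p = 0.159, edgeR). Jak2, at 43.9 to 55.0 CPM in WT and 47.0 to 70.0 CPM in H3.3cKO, and Stat3, at 121 to 169 and 142 to 143 CPM, overlapped between genotypes.

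In WT cells 4 members rose from day 3 to day 7, and 24.5% of all genes were called. Stat2 rose by 2.54 ± 0.43 on the log2 scale (adjusted p = 0.000963, edgeR), from 33.1 to 37.3 CPM on day 3 to 144 to 312 CPM on day 7. Stat5b rose from 57.1 to 58.5 CPM to 73.2 to 94.4 CPM (log2 0.48, adjusted p = 0.0101). Jak3 rose from 22.5 to 26.5 CPM to 34.2 to 59.0 CPM (0.80, 0.00989), and Tyk2, the IFNAR1-bound kinase, from 80.6 to 89.4 CPM to 101 to 147 CPM (0.46, 0.0433). WT day 7 replicate 2 held the highest Stat5b, Jak3 and Tyk2 values, and without it the adjusted p of Jak3 was 0.0524 and that of Tyk2 was 0.231. Tyk2 was also lost without any 1 of the WT day 3 libraries (adjusted p 0.0699 to 0.127). Over the same days all 8 neutrophil markers fell, from 1587 to 3045 CPM to 74.7 to 132 CPM in sum, with none at 0. Lower too were 4 of 5 B cell markers (11.6 to 12.7 CPM to 3.67 to 5.81 CPM, 1 at 0 on day 7) and 4 of 4 tested mast cell and basophil markers (2.82 to 3.93 CPM to 0.07 to 0.365 CPM, 2 of 5 at 0 on day 7). The part of these cells in the rises was not tested.

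In H3.3cKO cells Jak2 was the 1 member called from day 3 to day 7, lower by a log2 difference of -0.64 ± 0.16 (adjusted p = 0.0142, edgeR), against 14.7% of all genes. It went from 79.7 to 93.8 CPM to 47.0 to 70.0 CPM with no overlap, and the call was lost without day 3 replicate 1, day 7 replicate 2 or day 7 replicate 3 (adjusted p 0.0613 to 0.0811). All 8 neutrophil markers fell with it, from 2738 to 4227 CPM to 90.1 to 276 CPM in sum, with none at 0. So did 4 of 5 B cell markers (24.9 to 52.9 CPM to 4.86 to 8.53 CPM, 2 at 0 on day 7) and 4 of 4 tested mast cell and basophil markers (10.1 to 16.6 CPM to 0.525 to 1.12 CPM, none at 0), and their part was not tested. Stat2 changed by 0.26 ± 0.40 in these cells (adjusted p = 0.716). The difference between genotypes in the change from day 3 to day 7 was called for no member, against 0.0439% of all genes. For Stat2 it was -2.28 ± 0.58, with an unadjusted p of 0.0012 and an adjusted p of 0.102 in edgeR. It passed with replicate number as a block (-2.21, adjusted p = 0.0357), with DESeq2 (adjusted p = 0.00788) and when only the 4 groups were fitted (0.0107). Stat3 and Jak2 had unadjusted p under 0.05 for the same term (-0.59 and -0.54), and 2491 of all 15955 genes did.

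In day 8 BMDMs without IFNγ no member was called between genotypes by edgeR, against 0.658% of all genes. Stat2 alone had an unadjusted p under 0.05, against 792 of all 13075 genes, and was called by DESeq2. Stat2 was at 110, 94.0 and 74.8 CPM in WT and at 216 and 215 CPM in H3.3cKO. Both H3.3cKO libraries lay above all WT libraries, with a log2 difference of 1.22 ± 0.24 and an adjusted p of 0.0611 (0.000613 in DESeq2). The differences of the other 8 members lay between -0.07 and 0.30 on the log2 scale, and each had an adjusted p of 1.

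IFNγ raised 6 of the 9 members in WT cells, against 38.9% of all genes called. Stat2 went from 74.8 to 110 CPM to 622, 753 and 608 CPM, a log2 fold change of 2.83 ± 0.23 (adjusted p = 1.23e-05, edgeR). Jak2 went from 35.3, 37.2 and 38.5 CPM to 186, 231 and 162 CPM (2.38 ± 0.15, adjusted p = 2.91e-06). Stat3 went from 86.0, 101 and 81.1 CPM to 321, 387 and 330 CPM (1.95 ± 0.18, 2.97e-05). In all 3 genes the lowest treated library was above the highest untreated one. Tyk2 rose by 1.5 (71.3 to 81.6 against 189 to 234 CPM), Jak3 by 1.03 (15 to 21.7 against 33.9 to 38.7 CPM) and Stat5b by 0.78 (51.8 to 53.3 against 87.0 to 95.1 CPM) on the log2 scale. With the 2 H3.3cKO libraries of conflicting label added by title, which share the estimate of the spread, these 6 values hardly moved and their adjusted p were 0.065 to 0.102. Stat5a, the close paralog of Stat5b, was at 25.5 to 29.5 CPM without and 27.2 to 29.0 CPM with IFNγ (0.04, adjusted p = 0.847). Stat6 and Jak1 did not overlap between arms but did not pass (-0.23 and 0.31). The dendritic cell list rose from 0.637–1.32 to 45.2–68.6 CPM in sum with IFNγ, with 1 of 2 tested markers, Clec9a, called and 1 of 5 at 0, and its part was not tested.

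**Figure D3:**
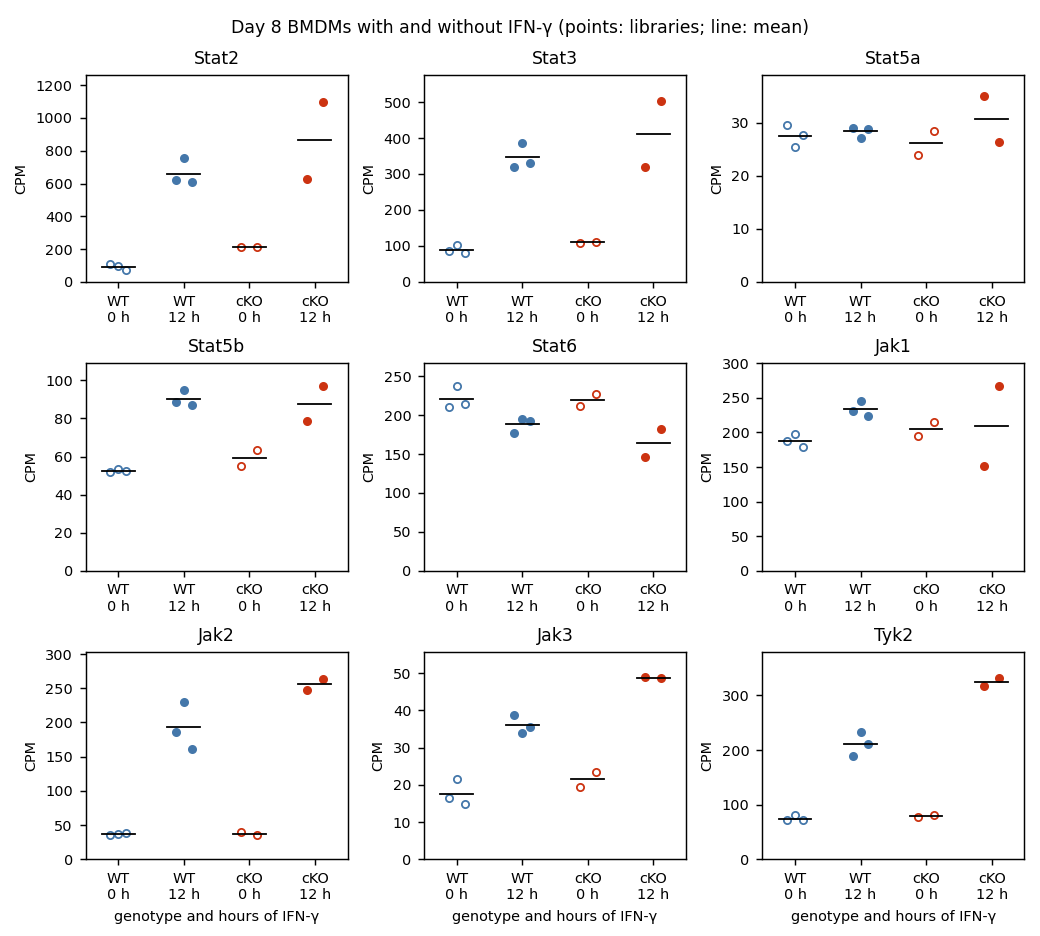
CPM of the 9 genes in day 8 BMDMs without and with IFNγ in WT and H3.3cKO (cKO), each panel on a linear axis from 0; points are libraries (open without, filled with IFNγ) and lines are means. Stat2, Stat3, Stat5b, Jak2, Jak3 and Tyk2 rose with IFNγ in both genotypes, and Stat5a stayed between 23.9 and 35.0 CPM.

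The H3.3cKO cells raised the same 6 members with IFNγ, against 33.9% of all genes called. These values leave out the 2 H3.3cKO libraries whose labels disagree on IFNγ. In Jak2 and Tyk2 the one with IFNγ in its title (39.8 and 79.2 CPM) was near the untreated libraries. The other (277 and 303 CPM) was near the treated ones, and no group was inferred from these values. With both placed by title no member was called, with Jak2 at 0.66, Tyk2 at 0.66, Stat3 at 0.39, Jak3 at 0.35, Stat2 at 0.35 and Stat5b at 0.08 on the log2 scale (adjusted p 0.947 to 0.963), and with both placed by library name 7 were called, with Jak2 at 2.78 and Stat2 at 2.20. Jak2 went from 39.8 and 35.3 CPM to 248 and 264 CPM, a log2 fold change of 2.77 ± 0.19 (adjusted p = 1.04e-05, edgeR). Tyk2 went from 78.2 and 81.3 CPM to 316 and 332 CPM (2.02 ± 0.16, adjusted p = 1.97e-05). Stat2 went from 216 and 215 CPM to 627 and 1099 CPM (2.0 ± 0.27, 0.000505), and the 2 treated libraries differed widely. Without treated replicate 1, the shallow library, the Stat2 value was 2.38, and without replicate 2 it was 1.51, called both times. Stat3 rose by 1.91, Jak3 by 1.18 and Stat5b by 0.57 on the log2 scale (adjusted p 0.00019, 0.00182 and 0.0177). Stat5b lost its call without either untreated library (0.161 and 0.0622) or without treated replicate 2 (0.0516). The sign of Jak1 turned on 1 treated library, at 0.41 without replicate 1 and -0.46 without replicate 2 (adjusted p = 0.0162 and 0.0167), and Stat6 was called lower without replicate 2 (-0.62, adjusted p = 0.00444).

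With IFNγ present 1 member differed between genotypes, Tyk2, against 5.45% of all genes. It was at 189, 234 and 211 CPM in WT and at 316 and 332 CPM in H3.3cKO, with no overlap (0.62 ± 0.14, adjusted p = 0.0344, edgeR). The call was lost without WT replicate 1 (0.0938), without WT replicate 3 (0.126) and with replicate number as a block (0.0983), and with the conflicting libraries placed by title the value was 0.19 (0.903). Summed dendritic cell markers were lower in H3.3cKO (22.3 to 32.0 against 45.2 to 68.6 CPM). Stromal (54.4 to 344 against 8.79 to 51.5 CPM) and B cell markers (1.30 to 1.81 against 0.595 to 0.965 CPM) were higher. None of these sums overlapped, and the part of these cells was not tested. Jak2 (162 to 231 against 248 to 264 CPM) and Jak3 (33.9 to 38.7 against 48.8 to 48.9 CPM) did not overlap and did not pass (adjusted p = 0.145 and 0.165). Stat2 overlapped, at 608 to 753 CPM in WT, with a log2 difference of 0.38 (adjusted p = 0.336). Without H3.3cKO replicate 1 it was 0.76 (0.0241), and without replicate 2 it was -0.10 (0.717). Stat3 was called higher without replicate 1 (0.57), and Stat6 (-0.39) and Jak1 (-0.65) were called lower without replicate 2. The difference between genotypes in the response to IFNγ was called for no member and for 0% of all genes. In edgeR 2 members, Stat2 (-0.83, adjusted p = 0.531) and Tyk2 (0.53, adjusted p = 0.518), had an unadjusted p under 0.05. So did 1205 of all 13075 genes, and DESeq2 called no member. Without H3.3cKO IFNγ replicate 2 the term was called for Stat2 (-1.32, adjusted p = 0.00342) and Jak1 (-0.77, adjusted p = 0.00493), and what remained was then the shallow library alone.

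In peritoneal macrophages no member was called, against 1.06% of all genes, and DESeq2 called none. Stat2 was at 46.1, 79.4 and 67.1 CPM in WT and at 102, 83.9 and 119 CPM in H3.3cKO. The genotypes did not overlap, with a log2 difference of 0.66 ± 0.23, an unadjusted p of 0.0181 and an adjusted p of 0.344 in edgeR. Tyk2 also did not overlap (101.7 to 155.8 against 156.5 to 165.5 CPM, log2 difference 0.33, adjusted p = 0.671). Stat3 was at 233, 585 and 387 CPM in WT and at 336 to 376 CPM in H3.3cKO, and relative to its level Jak3 was as widely spread in WT, from 21.0 to 55.1 CPM.

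With no antibody, Stat2 was the 1 member called between genotypes, against 8.16% of all genes. It was at 38.9, 30.2 and 24.3 CPM in WT and at 154, 122 and 88.4 CPM in H3.3cKO, with no overlap (1.96 ± 0.22, adjusted p = 8.73e-05, edgeR). With the control antibody Stat2 was again the 1 member called, against 5.11% of all genes, at 31.0, 30.2 and 33.9 CPM in WT and 101, 113 and 70.0 CPM in H3.3cKO (1.57 ± 0.22, adjusted p = 0.000565). Both calls held without any single library. Stat3 was higher in every H3.3cKO library of both arms and just missed the threshold with the control antibody, at 123 CPM in all 3 WT libraries and at 148, 151 and 160 CPM in H3.3cKO (0.31 ± 0.09, adjusted p = 0.0506). Jak2 had differences of -0.25 and -0.02 in these arms, with no call. Stromal markers were at 164 to 306 CPM in H3.3cKO and 13.1 to 225 CPM in WT with the control antibody, none at 0 in either group, and their part was not tested.

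With the IFNAR1 antibody no member was called between genotypes, against 0.698% of all genes, and DESeq2 called none. Stat2 was at 29.0, 28.2 and 26.8 CPM in WT and at 48.8, 37.9 and 37.8 CPM in H3.3cKO. The genotypes still did not overlap, with a log2 difference of 0.57 ± 0.21 and an adjusted p of 0.305 in edgeR. Stat2, Stat3 and Jak3 had an unadjusted p under 0.05, as did 2068 of all 17191 genes. Within H3.3cKO cells the IFNAR1 antibody lowered Stat2, the 1 member called, by a log2 difference of -1.18 ± 0.21 from the control antibody (adjusted p = 0.00906, edgeR), against 4.68% of all genes. No other member was called there, and Jak3 was nearest (0.71, adjusted p = 0.0976). Stromal markers also differed between these arms of H3.3cKO cells, at 164 to 306 CPM with the control and 42.4 to 87.2 CPM with the IFNAR1 antibody. These sums had no overlap and none at 0 (list median -2.08, with 1 of 4 tested, Pdgfrb, called lower). H3.3cKO libraries with no antibody were at 36.6 to 79.0 CPM, near the IFNAR1 arm, and the part of these markers was not tested. In WT cells no member was called in edgeR, against 11.2% of all genes. An unadjusted p under 0.05 was reached by 3 members and by 5817 of all 17191 genes. Stat6 was at 214, 224 and 216 CPM with the control antibody and at 127, 128 and 194 CPM with the IFNAR1 antibody (-0.54 ± 0.17, adjusted p = 0.0515, edgeR), and DESeq2 called it. With no antibody WT Stat6 was at 136 to 182 CPM, overlapping the IFNAR1 arm and below the control arm. The arm with no antibody was not tested against the others. Without WT IFNAR1 antibody replicate 3, Stat6 was called lower (-0.78, adjusted p = 0.00277) and Stat5b higher (0.70, adjusted p = 0.0103). WT Stat2 moved by -0.18 ± 0.21 (adjusted p = 0.572). The difference between genotypes in the effect of the antibody was called for no member and for 0% of all genes by edgeR, and DESeq2 called no member. For Stat2 it was -1.0 ± 0.30 with an unadjusted p of 0.00429 in edgeR, the only one under 0.05 among the members, and an adjusted p of 0.533. Over all genes 991 of 17191 had an unadjusted p under 0.05.

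All 3 sets of BMDMs raised Stat2 in H3.3cKO, and the sets differed in the other members. In set 1 Stat2 was at 104, 92.5 and 122 CPM in WT and 184, 170 and 207 CPM in H3.3cKO (0.81 ± 0.12, adjusted p = 1.77e-05, edgeR), and in set 2 at 116, 121 and 113 CPM against 210, 255 and 203 CPM (0.94 ± 0.12, 4.08e-06). In set 3 it was at 103, 84.1 and 106 CPM against 165, 156 and 167 CPM (0.74 ± 0.12, 5.22e-05). No WT library reached an H3.3cKO library in any set. Set 1 had 4 members called, 2 higher and 2 lower, against 34.6% of all genes, set 2 had 4 higher, against 21.9%, and set 3 had 1 higher and 2 lower, against 35.9%.

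Jak2 rose in sets 1 and 2, by 0.26 and 0.50 on the log2 scale (adjusted p = 0.0291 and 0.000181), and in set 3 the difference was 0.16 with no overlap between 48.4 to 53.0 CPM in WT and 54.5 to 58.9 CPM in H3.3cKO (adjusted p = 0.171). Tyk2 fell in sets 1 and 3 by log2 differences of -0.33 and -0.44 (adjusted p = 0.00279 and 0.00016), from 115–137 to 91.5–104 CPM and from 110–131 to 84.4–88.5 CPM. In set 2 it was at 95.8 to 97.3 CPM in WT and 91.5 to 102 CPM in H3.3cKO. Stat5b was lower in sets 1 and 3 (-0.19 and -0.25) and higher in set 2 (0.24), called each time, and Stat5a was higher in set 2 (0.24, adjusted p = 0.0426). These differences between sets were not tested. Same-numbered WT libraries of sets 1 and 3 shared deviations from their group means (r = 0.386, 0.316 and 0.143), so these sets may not be independent. The calls of Stat5a in set 2 (adjusted p 0.0571 to 0.139) and of Stat5b and Jak2 in set 1 were lost without 1 library, any of the 6 for Stat5a. For set 1 these were WT replicate 3 or either of H3.3cKO replicates 1 and 2 for Stat5b (0.0859 to 0.19), and WT replicate 2 or 3 or H3.3cKO replicate 2 for Jak2 (0.0941 to 0.124). Without WT replicate 1 of set 1, Stat5a was called lower (-0.24). Summed neutrophil markers moved with the same split, at 198 to 283 against 60.4 to 113 CPM in set 1 and 196 to 321 against 67.8 to 122 CPM in set 3, and at 151 to 170 against 102 to 178 CPM in set 2, with 5, 5 and 2 of 8 called higher and none at 0. Dendritic cell markers were higher in H3.3cKO in all 3 sets, with 4, 3 and 4 of 5 called in sets 1, 2 and 3 (12.9 to 16.9 against 3.03 to 6.24 CPM in sum in set 1, 5.23 to 5.73 against 1.24 to 2.50 in set 2, 11.7 to 20.5 against 4.40 to 5.14 in set 3) and none at 0. B cell markers had 4, 2 and 3 of 5 called higher, at 5.70 to 14.2 CPM in H3.3cKO and 2.56 to 6.85 CPM in WT over the sets, with none at 0. Mast cell and basophil markers had 1, 3 and 4 of 4 tested called higher, at 0.908 to 4.18 and 0.156 to 2.07 CPM over the sets, with up to 2 of 5 at 0 in WT. The part of these cells was not tested.

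**Figure D4:**
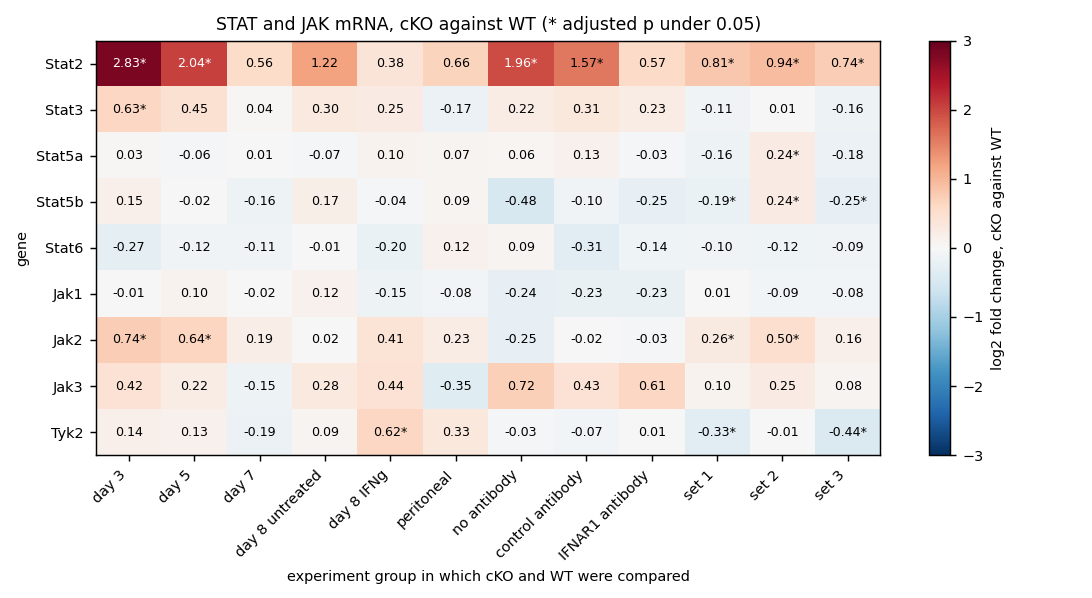
Log2 fold change of each gene between H3.3cKO and WT in 12 comparisons, with calls at an adjusted p under 0.05 marked. Stat2 is positive in all 12 and called in 7, and the values of Stat6 and Jak1 are small with no call.

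Stat2 stayed above WT in all 3 double knockouts. It was at 264, 311 and 306 CPM in H3.3cKO:StingKO, at 214, 225 and 204 CPM in H3.3cKO:MavsKO and at 287, 211 and 197 CPM in H3.3cKO:Irf7KO, against 84.1 to 122 CPM in the 9 WT libraries of the sets. The log2 differences from the WT sets were 1.46 ± 0.09, 1.01 ± 0.10 and 1.12 ± 0.10 (adjusted p = 9.87e-12, 8.45e-09 and 3.27e-09, edgeR). Against the H3.3cKO sets (156 to 255 CPM) Stat2 was higher in H3.3cKO:StingKO (0.63 ± 0.10, adjusted p = 2.77e-05), and the differences in H3.3cKO:MavsKO (0.18, adjusted p = 0.308) and H3.3cKO:Irf7KO (0.29, adjusted p = 0.0605) did not pass. Without H3.3cKO:Irf7KO replicate 1, the highest of the 3, that value was 0.11 (adjusted p = 0.626), and it was called without replicate 3 (0.39, adjusted p = 0.0267), without H3.3cKO set 1 replicate 3 (0.32) or without set 2 replicate 2 (0.33).

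H3.3cKO:StingKO moved most members. Against the H3.3cKO sets 7 were called, with 36.4% of all genes called. Stat2, Jak3 (0.50), Stat3 (0.46), Stat5a (0.32), Tyk2 (0.31) and Stat5b (0.16) were higher, and Jak2 was lower (-0.34, adjusted p = 0.00113). Jak3 was at 58.9, 56.2 and 59.0 CPM, above all 9 H3.3cKO libraries (32.9 to 49.2 CPM), and Stat3 was at 171, 179 and 188 CPM, above 118 to 144 CPM. Jak2 was at 39.0, 51.9 and 43.7 CPM, below 53.8 to 62.3 CPM. The Stat5b call was lost without 1 library, H3.3cKO:StingKO replicate 1 or 3 or replicate 1 of any H3.3cKO set or replicate 2 of set 1 (adjusted p 0.0505 to 0.136). Against the WT sets 4 were higher, Stat2, Jak3 (0.65), Stat3 (0.38) and Stat5a (0.28), and 40.2% of all genes were called. Stromal markers were at 163 to 201 CPM there against 23.6 to 70.0 CPM in the H3.3cKO sets, none at 0 in either, and their part was not tested.

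H3.3cKO:MavsKO had 1 member called against the H3.3cKO sets, Stat6, higher by 0.21 (adjusted p = 0.0134, edgeR), against 9.32% of all genes. Its libraries (292 to 317 CPM) lay within the range of the H3.3cKO sets (218 to 323 CPM), against set 2 alone the difference was -0.02, and the call was lost without H3.3cKO:MavsKO replicate 1 (0.0991) or 3 (0.0727). With it all 5 stromal markers were higher (82.1 to 293 against 23.6 to 70.0 CPM in sum), 6 of 8 neutrophil markers lower (57.6 to 119 against 151 to 321 CPM) and 4 of 5 dendritic cell markers lower (3.59 to 4.10 against 5.23 to 20.5 CPM), none at 0 in either, and their part was not tested. Against the WT sets, with 43.2% of all genes called, Stat2 and Jak2 (0.35) were higher and Tyk2 (-0.31) was lower. Stat6 was called there without WT set 1 replicate 3 (0.13) and Jak3 without WT set 3 replicate 1 (0.29). H3.3cKO:Irf7KO had 2 members called against the H3.3cKO sets, both lower, against 10.6% of all genes: Stat6 (-0.27, adjusted p = 0.00175) and Jak2 (-0.26, adjusted p = 0.0264). Jak2 was at 46.0 to 48.5 CPM, below every H3.3cKO library of the sets, whereas Stat6, at 211 to 224 CPM, overlapped them, and Jak2 lost its call without any 1 of the 3 H3.3cKO:Irf7KO libraries (0.0612 to 0.138). In the same comparison 7 of 8 neutrophil markers (84.7 to 115 against 151 to 321 CPM in sum) and 4 of 5 B cell markers (3.45 to 5.47 against 5.70 to 14.2 CPM) were lower. So were 2 of 5 dendritic cell markers (2.47 to 8.23 against 5.23 to 20.5 CPM) and 2 of 4 tested mast cell and basophil markers (0.439 to 0.723 against 0.908 to 4.18 CPM), none at 0 in either, and their part was not tested. Against the WT sets Stat2 was higher and Stat6 (-0.38), Tyk2 (-0.20) and Stat5b (-0.16) were lower, with 31.9% of all genes called. The Tyk2 call was lost without H3.3cKO:Irf7KO replicate 2 (0.155) or 3 (0.174), and the Stat5b call without either of these or without 1 of 4 WT libraries (set 1 replicate 3, set 2 replicates 1 and 2, set 3 replicate 1; adjusted p 0.0514 to 0.226). Since these references are the same libraries, the comparisons of the 3 double knockouts share their controls.

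**Figure D5:**
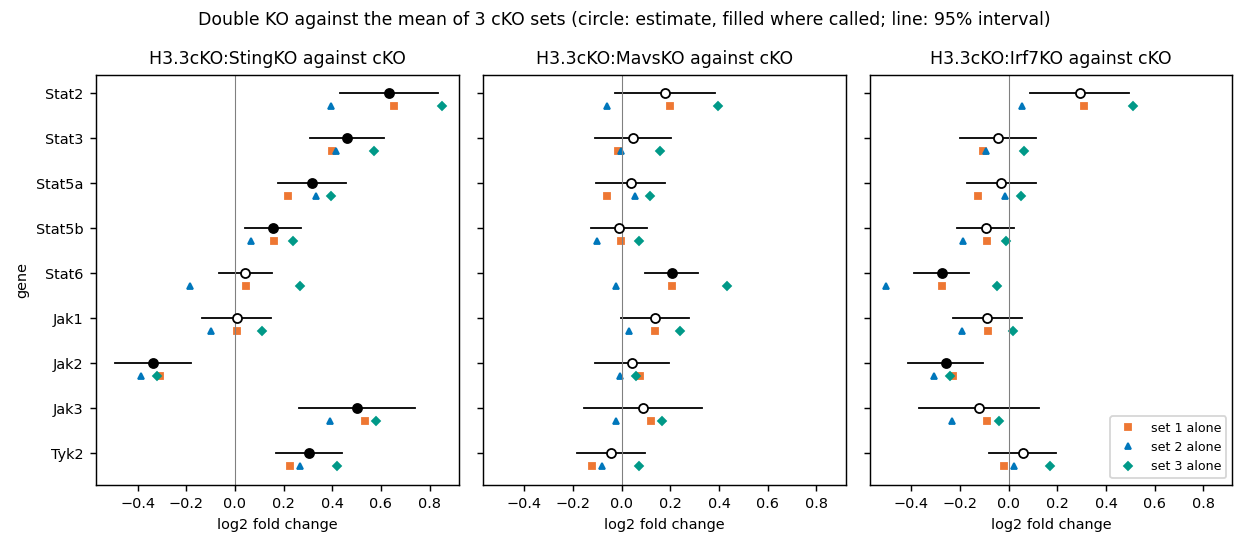
Log2 fold change of the 9 genes in each double knockout against the mean of the 3 H3.3cKO sets (circle, filled at an adjusted p under 0.05, with its 95% interval) and against each set alone (coloured symbols). H3.3cKO:StingKO has 7 filled circles, with Stat2 at 0.63 and Jak2 at -0.34, H3.3cKO:MavsKO has 1 and H3.3cKO:Irf7KO has 2.

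Across the 12 comparisons of H3.3cKO with WT, Stat2 was positive in 12 and called higher in 7. Jak2 was positive in 9 and called higher in 4. Stat3 was called in 1 and Stat5a in 1, both higher, Stat5b in 1 higher and 2 lower, and Tyk2 in 1 higher and 2 lower. Stat6, Jak1 and Jak3 were called in none, although Jak3 was positive in 10. Stat6 was positive in 2 and Jak1 in 3.

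Of the other genes of the pathway, the interferon targets moved with Stat2 on day 3. The lists were fixed with earlier results of these data known, so their counts are a description. In that comparison 8.65% of all genes were called, and 10 of 11 interferon targets tested rose. Their median log2 difference was 6.02, against 0.04 over all genes. The largest were Ifit3 (7.18) and Ifit1 (6.70), which encode antiviral RNA-binding proteins. Of 6 ligands tested 2 rose, Ifnb1 (5.77), the gene for IFNβ, and Lif (1.99), with a list median of 1.13. Of 21 receptor chains Il15ra rose (1.17) and Ifnar1 fell (-0.42), with a median of 0.36. Irf9, the DNA-binding partner of Stat2 in ISGF3, rose by 1.75. Of 20 inhibitors 3 rose, and the largest were Usp18 (5.82), which blocks IFNAR signalling, and Socs1 (1.59), a JAK inhibitor (median 0.14). Of 12 targets of other cytokines Pim1 rose (1.14) and Arg1, the arginase gene of the IL-4 response, fell (-2.54), with a median of -0.10.

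In the other settings the interferon targets had smaller medians between H3.3cKO and WT, at most 4.04 (day 5), while receptors, inhibitors and targets of other cytokines had more calls in some. Set 1, where 34.6% of all genes were called, had 10 of 22 receptors called, 4 higher and 6 lower. Its 7 of 20 inhibitors called, 6 higher and 1 lower, were near that share. Of 12 targets of other cytokines 8 were called there, 5 higher and 3 lower. With the control antibody 5 of those 12 targets were called, 2 higher and 3 lower, against 5.11% of all genes. For the next 3 settings the share of all genes called was 0.658% in untreated day 8 BMDMs, 1.06% in peritoneal macrophages and 0.698% with the IFNAR1 antibody. In untreated day 8 BMDMs 6 of 11 interferon targets rose (median 1.60, all genes 0.01), led by Irf7 (2.08) and Mx1 (2.06), as did 2 of 19 inhibitors, Usp18 (1.95) and Socs1 (1.12), and no ligand, receptor, Irf9 or other cytokine target was called. In peritoneal macrophages 5 of 10 interferon targets rose (median 1.42), led by Ifit3 (2.60) and Rsad2 (2.39), while Retnla (-6.42) and Mrc1 (-3.35), both genes of alternative activation, fell among 13 targets of other cytokines, and the other lists had no call. With the IFNAR1 antibody 8 of 11 interferon targets were higher in H3.3cKO (median 2.53), led by Ifit3 (5.35) and Ifit1 (3.41), together with Usp18 (2.13) of 20 inhibitors and Csf3r (0.68) of 20 receptors. No ligand and no other cytokine target was called there, and Irf9 was at 0.73 (adjusted p = 0.215, edgeR).

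The genes whose pattern was most like each member were found by Pearson's r of log2 CPM over the 79 libraries, each minus the mean of its experiment, among 11170 genes tested in all experiments. This is a description, since the libraries share experiments and depth. The values also mix differences between genotypes, days and treatments, among them the rises with IFNγ on day 8. Stat2 was closest to Ifih1 (0.97), Herc6 (0.97) and Zbp1 (0.97). Jak2 was closest to Rnf19b (0.91), Fgl2 (0.91) and Cd274 (0.90), Tyk2 to Slc12a9 (0.93), Gsdmd (0.90) and Pik3cd (0.90), and Stat3 to Rnf31 (0.91), Nod1 (0.90) and Arel1 (0.90). The values were lower for Stat5b (Zmym3, 0.87), Stat6 (Rnf44, 0.82), Jak3 (Uba7, 0.76), Jak1 (Sec24c, 0.72) and Stat5a (Wbp1, 0.66). Among the members the highest values were for Stat3 with Tyk2 (0.86), Stat3 with Jak2 (0.81) and Jak2 with Tyk2 (0.75). Stat2 was at 0.69 with Stat3 and 0.62 with Jak3. Stat6 was negative with each other member except Jak1 (0.37).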

How the data were processed

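RNA was measured in 81 libraries, of which 79 had a group in the labels. For each library the authors deposited raw read counts per gene from paired-end reads trimmed with cutadapt and aligned to mm10 with STAR, per the labels and the study's methods, and versions were not given in the sources used here. BMDM libraries were made after rRNA depletion with NEBNext Ultra II and peritoneal libraries with SMART-Seq v4, so no test crosses experiments. The unstranded count column was used, and rows that name no gene were left out.

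Each of the 5 experiments was fitted as 1 model over all its groups. Genes with too few counts were removed (a count of 10 in the smallest group's number of libraries and 15 in total), leaving 12361 to 18083 genes, and all 9 members passed everywhere. TMM normalization and the quasi-likelihood test of edgeR 4.0.16 (R 4.3.3) were used, with p-values adjusted by Benjamini-Hochberg over all genes tested and a call at an adjusted p under 0.05. CPM use TMM-scaled library sizes, and intervals are 95%. The script was tested on simulated counts. Union exon lengths came from GENCODE M21.

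The members, gene lists and markers were chosen with earlier results of these data known. Every member is named, with at most the 2 called genes of largest rise and fall per pathway list. Alternatives were RLE normalization, other count filters, DESeq2 1.42.0, the larger stranded column, fits of only the groups compared, replicate number as a block, each library left out, single sets as references and both placements of the conflicting libraries. An older quasi-likelihood setting was added after seeing the data. Same-numbered libraries deviated together, each pair above 0.1, in H3.3cKO against WT on day 3 (0.126 to 0.419), on day 7 (0.153 to 0.467) and in peritoneal macrophages (0.144 to 0.194), in H3.3cKO day 7 against day 3 (0.138 to 0.415) and for IFNγ in WT (0.335 to 0.451). There the numbers pair the samples as a hint from the data. In the other comparisons of 2 groups not every pair was above 0.1, though WT day 7 against day 3 came near (0.0925 to 0.396). Whether same-numbered libraries share an origin there was not tested. Same-numbered WT libraries of sets 1 and 3 also deviated together (0.143 to 0.386). Whether these sets are independent was not tested, and the double knockout tests treat all libraries as independent. No 2 libraries were alike within sampling noise (lowest chi-square per degree of freedom 3.48). In some groups replicates 2 and 3 were much closer to each other than to replicate 1. Their value was 3.48 against 34.6 and 38.9 in WT day 5, and 3.91 against 42.5 and 48.9 in H3.3cKO day 7. In WT day 7 it was 90.6 against 131 and 55.7. Whether such replicates share an origin was not tested.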

Additional observations from a re-analysis of the deposited data

How the results depend on the processing

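Of 243 alternative counts of members called, 205 stayed within 1.5 times the value reported, as did 186 of 210 counts with 1 library left out, and of 1662 values of single members 1477 kept their direction and their side of the threshold. The cause of each change was not tested. The share of all genes called in each alternative fit is not given beside these counts. The counts therefore do not show whether a change was particular to the members. Fitting only the groups compared gave 5 members on day 3, 0 on day 5, 1 for WT day 7 against day 3, 1 for the interaction of genotype and day, 1 in untreated day 8 cells, 0 with IFNγ, 2 with no antibody, 5 with the control antibody, 2 in set 1 and 2 for H3.3cKO:Irf7KO against the WT sets. Without a filter on low counts there were 1 on day 5, 1 in untreated day 8 cells, 0 with IFNγ, 2 in set 1 and 2 for H3.3cKO:Irf7KO against the WT sets. DESeq2 gave 1 for the day interaction, 1 in untreated day 8 cells, 2 with no antibody, 2 with the control antibody and 1 for the IFNAR1 antibody in WT. RLE normalization gave 1 for that last comparison and 2 for H3.3cKO:Irf7KO against the WT sets, a mean of 1 CPM gave 1 and, with the control antibody, 2, and the larger stranded column gave 2 there. The replicate block gave 1 for the day interaction (Stat2) and 0 between genotypes with IFNγ (Tyk2), and it changed no other call of a member. Placing the conflicting libraries by title gave 0 between genotypes with IFNγ, 0 for IFNγ in WT and 0 for IFNγ in H3.3cKO, and by library name gave 1 in untreated cells. Single sets as reference gave 7 for H3.3cKO:StingKO against WT set 2, 0 and 3 for H3.3cKO:MavsKO against H3.3cKO sets 2 and 3, 5 and 5 against WT sets 1 and 3, and 1 and 1 for H3.3cKO:Irf7KO against H3.3cKO sets 1 and 3. With 1 library left out the counts ran from 1 to 3 on day 3, 0 to 2 on day 5, 2 to 4 for WT day 7 against day 3, 0 to 1 for the same in H3.3cKO, 0 to 3 between genotypes with IFNγ, 5 to 7 for IFNγ in H3.3cKO, 0 to 2 for its interaction, 0 to 2 for the IFNAR1 antibody in WT, 2 to 5 in set 1, 3 to 3 in set 2, 6 to 7 for H3.3cKO:StingKO against the H3.3cKO sets, 0 to 1 and 3 to 4 for H3.3cKO:MavsKO against the H3.3cKO and WT sets, and 1 to 3 and 2 to 4 for H3.3cKO:Irf7KO. Where an arm then held 1 library, it was assumed to vary like the other groups. The direction turned, with a call in at least 1 of both fits, for Jak1 with IFNγ in H3.3cKO, which ran from -0.46 to 0.41 with 1 library left out, for Stat6 in H3.3cKO:StingKO against H3.3cKO set 2 (-0.18) and WT set 3 (0.17), for Stat6 in H3.3cKO:MavsKO against H3.3cKO set 2 (-0.022), for Stat5a in H3.3cKO:MavsKO against WT set 1 (-0.22), and in H3.3cKO:Irf7KO against WT set 2 for Stat5a (0.23), Stat5b (0.057) and Tyk2 (0.013). The day 8 counts rest on the shallowest libraries and on 2 H3.3cKO libraries per arm.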

Other observations

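The 2 day 8 H3.3cKO libraries whose labels disagree on IFNγ entered no comparison. The library with IFNγ in its title but not in its library name (9674853 counts) held Stat2 at 179 CPM, Stat3 at 95.9 CPM, Jak2 at 39.8 CPM, Tyk2 at 79.2 CPM, Jak3 at 20.3 CPM and Stat5b at 55.5 CPM. The library with IFNγ in its library name but not in its title (10498769 counts) held Stat2 at 1074 CPM, Stat3 at 485 CPM, Jak2 at 277 CPM, Tyk2 at 303 CPM, Jak3 at 49.2 CPM and Stat5b at 101 CPM. Stat5a (31.3 and 28.6 CPM), Stat6 (200.2 and 182 CPM) and Jak1 (183 and 276 CPM) were closer between the 2 libraries.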
